A study of Homo sapiens with 4 samples.

Results

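The heat shock chaperones described here are 10 human genes of the cytosol and the mitochondrion, taken by gene symbol from the 58233 Ensembl identifiers of a table of raw read counts. They are the HSP70 genes HSPA1A, HSPA1B and HSPA8, the J protein genes DNAJB1 and DNAJA1, the HSP110 gene HSPH1, the HSP90 genes HSP90AA1 and HSP90AB1, and the mitochondrial chaperonin genes HSPE1 and HSPD1. All 10 had a count in every library. The study used a pair of established cell lines of human pancreatic cancer, MIA PaCa-2 and PANC-1, both listed as wild type in the sample records. Messenger RNA was sequenced 24 h after treatment with cannabichromene (CBC), a non-psychotropic cannabinoid of hemp, or with PBS. The MIA PaCa-2 cells received 35 µM CBC and the PANC-1 cells 30 µM, doses that come from the study's methods. The records name the controls PBS, whereas the methods name acetonitrile as the solvent of CBC. The methods also call the control of each line in the RNA sequencing a vehicle control. What solvent that vehicle was is not given in the sources used here. There was 1 library per condition and 4 in all, so differences within a line have no replicate check.

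Chaperones bind proteins that are not yet folded or have lost their fold. HSP70 holds short exposed stretches of a client and releases it in a cycle driven by ATP, J proteins deliver clients and start that cycle, and HSP110 resets it by exchanging nucleotide. HSP90 takes over many kinases and receptors at a late stage of folding, while in the mitochondrion the chaperonin HSPD1 closes over a client with its lid HSPE1. When proteins are damaged, the factor HSF1 binds heat shock elements, repeats of the unit nGAAn in alternating direction, and raises the transcription of many of these genes.

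HSPA1A and HSPA1B lie next to each other on chromosome 6 of GRCh38, HSPA1A at chr6:31815543-31817946 and HSPA1B at chr6:31827738-31830254, both on the plus strand. Their messages are so alike that 1666 of the 2301 stretches of 100 bases in the HSPA1A canonical transcript (72.4%) were also found in HSPA1B, and 68.9% of those of HSPA1B were found in HSPA1A. How the counting treated reads that match both genes is not stated, so their separate counts are uncertain. Their sum is given beside them, although it too lacks any read that was dropped for matching both. The likeness extends upstream, where 235 of 251 aligned positions before the start (93.6%) were identical. The 150 bases before each start are shown because they carry the same exact match to heat shock element letters. These letters, GAANNTTC (2 units pointing at each other), stand in capitals. Both are RefSeq sequences of GRCh38.p14 on the plus strand, HSPA1A at chr6:31815393-31815542 and HSPA1B at chr6:31827588-31827737.
HSPA1A: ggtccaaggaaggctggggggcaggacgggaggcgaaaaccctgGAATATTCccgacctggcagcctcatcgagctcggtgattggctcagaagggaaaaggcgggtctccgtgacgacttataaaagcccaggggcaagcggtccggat
HSPA1B: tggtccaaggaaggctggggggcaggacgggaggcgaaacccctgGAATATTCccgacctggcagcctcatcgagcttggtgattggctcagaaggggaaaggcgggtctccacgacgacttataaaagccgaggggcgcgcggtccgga

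A longer element of 3 units was searched as GAANNTTCNNGAA and as its reverse complement TTCNNGAANNTTC, in RefSeq windows that run from 250 bases before a start to 50 bases from the start on. It was present in 172 of 35116 windows (0.49%) and in 5 of the 16 windows of the chaperone genes (31.25%). The 5 windows belonged to 5 genes, namely HSPA8, HSP90AA1, HSP90AB1, HSPD1 and DNAJA1, where it lay 3 to 15 bases into the transcript. The 2-unit letters GAANNTTC or TTCNNGAA, which every 3-unit match contains, were in 4737 windows (13.5%) and in 9 of the 16 windows of the chaperone genes (56.25%), which belonged to 8 of the 10 genes. HSPA1A, HSPA1B and DNAJB1 had the 2-unit letters only, and HSPE1 and HSPH1 had neither in these windows. Only exact letters were searched, so elements that include imperfect units would be missed or appear shorter. For HSPE1 the absence depends on the start used. Its RefSeq window, chr2:197500129-197500428, leaves out the 3-unit letters of HSPD1 at chr2:197500068-197500085. Those letters lie upstream of the annotated gene start of HSPE1, chr2:197500140 on the plus strand. The 3-unit stretches of the HSP90 genes, of HSPA8 and of HSPD1 are shown so that their letters can be compared, with the element in capitals. HSP90AB1 carried a pair of them at chr6:44247748-44247820 and chr6:44247801-44247865 on the plus strand. HSPA8 carried a pair too, at chr11:123062353-123062386 and, given as the element alone, at chr11:123062179-123062191. HSP90AA1 (chr14:102087090-102087162), HSPA8 and HSPD1 (chr2:197500068-197500085) are given on the minus strand, on which they are transcribed. In HSPD1 both 3-unit forms overlap, so that the run holds 4 units in a row.
HSP90AB1, distal: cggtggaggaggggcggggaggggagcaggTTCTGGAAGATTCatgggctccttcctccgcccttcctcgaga
HSP90AB1, proximal: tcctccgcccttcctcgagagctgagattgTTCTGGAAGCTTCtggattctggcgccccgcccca
HSP90AA1: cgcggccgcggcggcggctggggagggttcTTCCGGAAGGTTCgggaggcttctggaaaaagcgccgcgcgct
HSPA8, distal: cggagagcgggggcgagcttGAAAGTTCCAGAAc
HSPA8, proximal: TTCTGGAAGGTTC
HSPD1: TTCTGGAAAGTTCTGGAA
A match of letters is a description of the sequence, and binding of a factor was not measured.

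The libraries held 21742775 to 27903667 counts on genes. Levels are given as CPM, read counts per 1000000 counts of the library, on library sizes scaled by the trimmed mean of M-values (TMM). On the unscaled library totals 3 counts, the most a count of 0 allows, equal 0.108 to 0.138 CPM. Log2 fold changes come from the TMM scaling with a prior count of 2, and each has an exact 95% binomial interval (Clopper-Pearson) that covers counting error only. KRT8, KRT18 and KRT19, keratins of epithelial cells, were at 161 to 1801 CPM in all 4 libraries. The keratin KRT7 had 2 and 52 counts in MIA PaCa-2 without and with CBC, and 49 and 58 in PANC-1. EPCAM and CDH1 had at most 1 count in the MIA PaCa-2 libraries. In PANC-1 without and with CBC, EPCAM was at 11.6 and 9.15 CPM and CDH1 at 1.41 and 4.79 CPM. Of 12 markers of leukocytes, endothelium, fibroblasts, acinar and islet cells, 8 were at 0 in every library, and their summed level was 3.73 CPM in the control and 0.93 CPM in the CBC library of MIA PaCa-2 and 133.61 and 46.44 CPM in those of PANC-1. Nearly all of the PANC-1 sum was COL1A1. Mitochondrially encoded transcripts took 5.81% of counts in the MIA PaCa-2 control and 3.86% after CBC, and 4.63% and 2.42% in PANC-1. Their part in the results was not tested. In bulk RNA, fewer cells that express a gene and less RNA per cell cannot be told apart.

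Together the 10 chaperone genes took 1.12% of all MIA PaCa-2 counts without and 0.901% with CBC, and 0.767% and 0.510% of those of PANC-1. CBC-treated PANC-1 cells thus gave the smallest share and the MIA PaCa-2 control the largest. In PANC-1 cells all 10 genes were lower after CBC, by 21.4% to 52.6%. In MIA PaCa-2 cells HSPA8, DNAJA1, HSP90AA1, HSP90AB1, HSPE1 and HSPD1 were lower, by 10.1% to 38.3%, and HSPA1A, HSPA1B, DNAJB1 and HSPH1 were higher, by 12.3% to 43.1%. Of all genes tested, 50.9% had a log2 fold change below 0 in MIA PaCa-2 and 48.6% in PANC-1. In the test across both lines described below, HSP90AA1 was the only member called lower, against 2.45% of all genes. None was called higher, against 2.26%. The call of HSP90AA1 was lost with a minimum of 5 CPM in 2 libraries and without the cell line in the model.

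**Figure D1:**
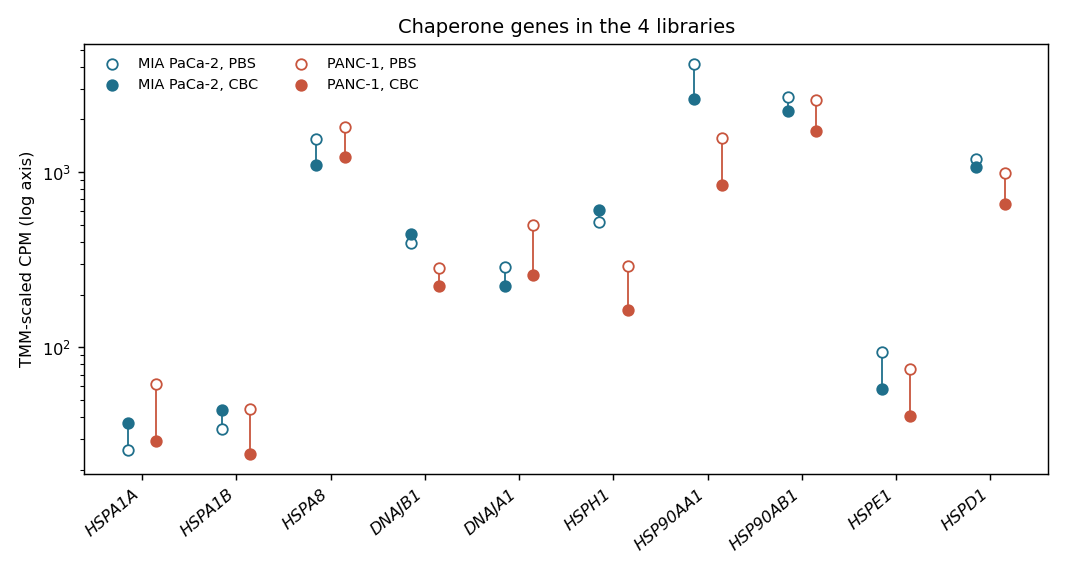
TMM-scaled CPM (log axis) of each of the 10 chaperone genes, with open circles for the PBS library and filled circles for the CBC library of MIA PaCa-2 (blue) and PANC-1 (red), 1 library each. Every filled PANC-1 circle lies under its open partner, and in MIA PaCa-2 those of HSPA1A, HSPA1B, DNAJB1 and HSPH1 lie above it.

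Because CPM grows with transcript length, levels of different genes were compared per kilobase of the canonical transcript. In the MIA PaCa-2 control HSP90AA1 was the highest of the 10 at 1292 CPM per kb, place 23 among protein-coding genes, followed by HSP90AB1 at 1045, HSPA8 at 686 and HSPD1 at 527 CPM per kb. The co-chaperones were lower, with DNAJB1 at 175, DNAJA1 at 124 and HSPH1 at 99.1 CPM per kb, and HSPE1 was at 169. The inducible HSP70 genes were the lowest, with 13.7 CPM per kb for HSPA1B and 10.8 for HSPA1A, so the constitutive HSPA8 far exceeded both. In the PANC-1 control the order was led by HSP90AB1 at 1016 CPM per kb and HSPA8 at 797, ahead of HSP90AA1 at 486 and HSPD1 at 441. DNAJA1 stood at 214 CPM per kb there, above HSPE1 at 136, DNAJB1 at 127 and HSPH1 at 55.5. With 1 library per condition no spread is at hand to separate neighbours in this order.

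The stress-inducible HSP70 genes HSPA1A and HSPA1B were higher after CBC in MIA PaCa-2 and lower in PANC-1. HSPA1A, a cytosolic HSP70 that is made in quantity under heat or proteotoxic stress, had 578 counts (26.0 CPM) in the MIA PaCa-2 control, 921 (37.2 CPM) after CBC, 1407 (61.9 CPM) in the PANC-1 control and 801 (29.3 CPM) after CBC. The PANC-1 control was thus the highest library and the MIA PaCa-2 control the lowest, and both CBC libraries lay between them. The log2 fold change was 0.52 (95% interval 0.37 to 0.67) in MIA PaCa-2 and -1.08 (-1.21 to -0.95) in PANC-1. HSPA1B, which encodes the same protein sequence or nearly so, had 766 counts (34.4 CPM), 1081 (43.7 CPM), 1007 (44.3 CPM) and 671 (24.6 CPM) in the same order of libraries. Its lowest library was therefore CBC-treated PANC-1, and its level in CBC-treated MIA PaCa-2 cells came close to that of the PANC-1 control. The log2 fold changes of HSPA1B were 0.34 (0.21 to 0.48) and -0.85 (-0.99 to -0.71).

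HSPA1A made up 43.0% of the reads given to the pair in the MIA PaCa-2 control and 58.3% in the PANC-1 control, against 46.0% and 54.4% after CBC. The share of read pairs that match both genes was not measured, so these shares are uncertain, and the summed counts were 1344 and 2002 in MIA PaCa-2 and 2414 and 1472 in PANC-1 without and with CBC. The sum kept both directions.

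HSPA8 is the constitutive HSP70 of the cytosol (chr11:123057489-123063230, minus strand), which folds new proteins and strips clathrin from vesicles. It had 34532 counts (1553 CPM) in the MIA PaCa-2 control, 27050 (1094 CPM) after CBC, 41051 (1805 CPM) in the PANC-1 control and 33521 (1227 CPM) after CBC. Both CBC libraries lay under both controls. The log2 fold change was -0.51 (-0.53 to -0.48) in MIA PaCa-2 and -0.56 (-0.58 to -0.54) in PANC-1, the closest pair of values among the 10 genes. The difference of PANC-1 minus MIA PaCa-2 was -0.05 (-0.08 to -0.02, counting error only). The inducible pair accounted for 3.75% of the reads of HSPA1A, HSPA1B and HSPA8 in the MIA PaCa-2 control (3.55% to 3.95%) and for 6.89% after CBC (6.60% to 7.19%). In PANC-1 this share went the other way, from 5.55% (5.34% to 5.77%) to 4.21% (4.0% to 4.42%). Such a share within a library does not depend on how libraries are scaled.

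DNAJB1 (chr19:14514769-14560391, minus strand) is the class B J protein that works with HSP70 on aggregated proteins. It had 8736 counts (393 CPM) and 10909 (441 CPM) in MIA PaCa-2 without and with CBC, and 6483 (285 CPM) and 6120 (224 CPM) in PANC-1. Both MIA PaCa-2 libraries exceeded both PANC-1 libraries. The log2 fold change was 0.17 (0.13 to 0.21) in MIA PaCa-2 and -0.35 (-0.40 to -0.30) in PANC-1. DNAJA1 (chr9:33025273-33039907, plus strand), a class A J protein with a farnesyl anchor, had 6390 counts (287 CPM), 5577 (226 CPM), 11286 (496 CPM) and 7096 (260 CPM) in the same order. It was lower after CBC in both lines, and the PANC-1 control stood far above the other libraries. Its log2 fold changes were -0.35 (-0.40 to -0.30) and -0.93 (-0.98 to -0.89).

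DNAJB1 took 57.8% of the reads of both J proteins in the MIA PaCa-2 control (57.0% to 58.5%) and 66.2% after CBC (65.4% to 66.9%). In PANC-1 it took 36.5% (35.8% to 37.2%) and 46.3% (45.5% to 47.2%). The share of DNAJB1 was thus higher after CBC in both lines, in MIA PaCa-2 with more DNAJB1 and less DNAJA1 and in PANC-1 with less of both. Exons of DNAJB1 share 525 bases with TECR on the opposite strand, and whether reads were counted by strand is not stated. TECR itself had 4697, 2943, 3357 and 2425 counts in the same order.

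HSPH1 (chr13:31134973-31162388, minus strand) encodes the HSP110 that exchanges nucleotide on HSP70 and helps it to pull proteins out of aggregates. It had 11560 counts (519.8 CPM) in the MIA PaCa-2 control and 15100 (611 CPM) after CBC, against 6618 (291 CPM) and 4447 (163 CPM) in PANC-1. CBC-treated MIA PaCa-2 cells were the highest library and CBC-treated PANC-1 cells the lowest. The log2 fold change was 0.23 (0.20 to 0.27) in MIA PaCa-2 and -0.84 (-0.89 to -0.78) in PANC-1, and the difference between the lines was -1.07 (-1.14 to -1.01).

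HSP90AA1 (chr14:102080742-102139699, minus strand) is the stress-inducible form of cytosolic HSP90 and HSP90AB1 (chr6:44246166-44253888, plus strand) the constitutive form. HSP90AA1 had 92746 counts (4170 CPM) and 64939 (2625 CPM) in MIA PaCa-2 without and with CBC, and 35659 (1568 CPM) and 23185 (848 CPM) in PANC-1. It was lower after CBC in both lines, and even CBC-treated MIA PaCa-2 cells exceeded the PANC-1 control. The log2 fold change was -0.67 (-0.68 to -0.65) in MIA PaCa-2 and -0.89 (-0.91 to -0.86) in PANC-1. HSP90AB1 had 59370 counts (2670 CPM), 54956 (2222 CPM), 59023 (2596 CPM) and 47145 (1725 CPM). The controls of the lines were close to each other, and both CBC libraries were lower, with log2 fold changes of -0.26 (-0.28 to -0.25) and -0.59 (-0.61 to -0.57). HSP90AA1 supplied 61.0% of the reads of both HSP90 genes in the MIA PaCa-2 control (60.7% to 61.2%) and 54.2% after CBC (53.9% to 54.4%). In PANC-1 it supplied 37.7% (37.4% to 38.0%) and 33.0% (32.6% to 33.3%), so the share of the inducible form was lower after CBC in both lines and HSP90AB1 dominated in PANC-1 under both treatments.

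HSPE1 and HSPD1 are neighbours on chromosome 2 that are transcribed in opposite directions, HSPE1 at chr2:197500140-197503449 on the plus strand and HSPD1 at chr2:197486584-197516737 on the minus strand, so that the annotated span of HSPD1 takes in HSPE1. HSPE1, the lid of the chaperonin, had 2095 counts (94.2 CPM) and 1437 (58.1 CPM) in MIA PaCa-2 without and with CBC, and 1722 (75.7 CPM) and 1107 (40.5 CPM) in PANC-1. Both CBC libraries were under both controls, with log2 fold changes of -0.70 (-0.80 to -0.60) and -0.90 (-1.01 to -0.79). HSPD1, the barrel that the lid closes, had 26327 counts (1184 CPM), 26329 (1064 CPM), 22507 (989.8 CPM) and 18098 (662 CPM). In MIA PaCa-2 the counts of HSPD1 were nearly equal, and relative to the larger CBC library the log2 fold change was -0.15 (-0.18 to -0.13), whereas in PANC-1 the log2 fold change was -0.58 (-0.61 to -0.55). The lid's share of the reads of both genes was 7.37% in the MIA PaCa-2 control (7.07% to 7.68%) and 5.18% after CBC (4.92% to 5.44%). In PANC-1 it was 7.11% (6.79% to 7.44%) and 5.76% (5.44% to 6.10%), lower after CBC in this line too. Exons of the genes overlap by 135 bases on opposite strands, and 31.7% of the 100-base stretches of the short HSPE1 message were also found in related genes, mostly in the read-through gene HSPE1-MOB4, which was listed at 0 in all 4 libraries.

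**Figure D2:**
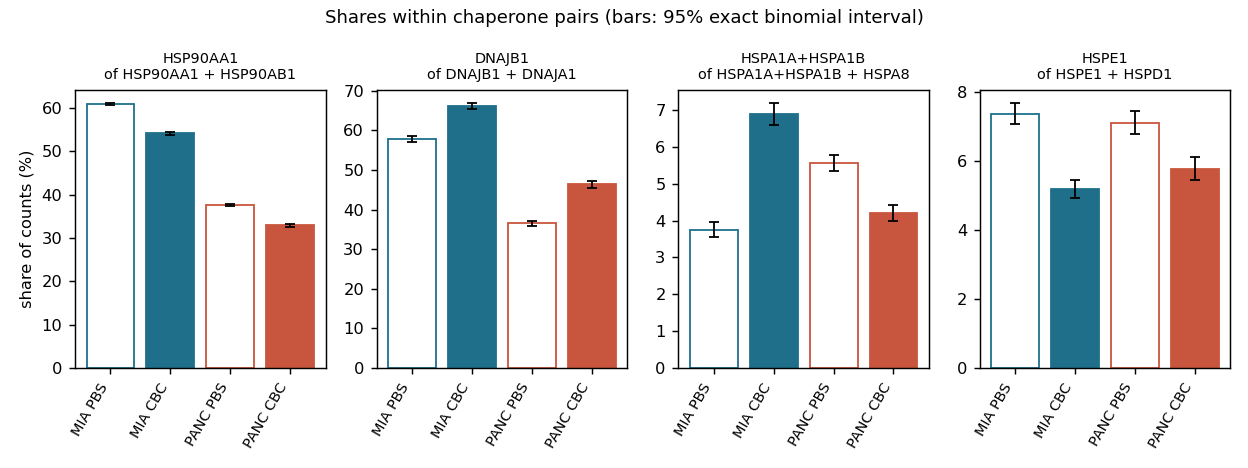
Share of counts (%) taken by the first gene or genes of 4 chaperone pairs in each library, with 95% exact binomial intervals and a separate vertical axis from 0 for each pair. The shares of HSP90AA1 and HSPE1 are lower and that of DNAJB1 is higher after CBC in both lines, while the share of HSPA1A with HSPA1B is higher in MIA PaCa-2 (6.89% against 3.75%) and lower in PANC-1 (4.21% against 5.55%).

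A change of more than 2-fold was the study's own threshold within a line. In MIA PaCa-2 cells 0 of the 10 genes passed it in either direction, where 11.5% of 14001 tested genes were higher and 8.97% lower by that much. Of the 10, 6 had a log2 fold change below 0, against 50.9% of all genes tested in this line, and their median was -0.21 beside a median of -0.01 over all genes. In PANC-1 cells HSPA1A alone was lower by more than 2-fold and none was higher, against 7.03% of 14091 genes lower and 7.71% higher. The interval of HSPA1A reached -0.95, so counting error alone could bring it under the threshold, and the summed HSPA1A and HSPA1B did not pass it. All 10 genes had a log2 fold change below 0 in PANC-1, against 48.6% of all genes, with a median of -0.84 beside 0.02.

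**Figure D3:**
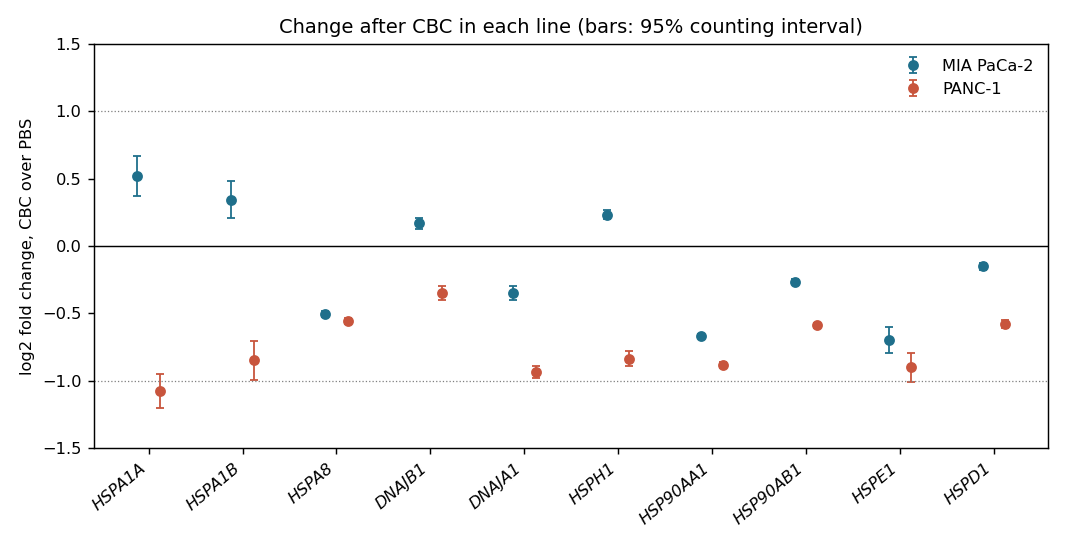
Log2 fold change of CBC over PBS in MIA PaCa-2 (blue) and PANC-1 (red) for each chaperone gene, with 95% counting intervals and dotted lines at the 2-fold threshold. The PANC-1 point lies under the MIA PaCa-2 point for all 10 genes, and HSPA1A in PANC-1 (-1.08) is the single point past a dotted line.

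HSPA1A, HSPA1B, DNAJB1 and HSPH1 were higher in MIA PaCa-2 and lower in PANC-1 with both intervals past 0. These were 4 of the 10 genes, against 5.99% of the 12502 genes tested in both lines. The shares over all genes in this paragraph are not matched for depth. They include genes near 1 CPM, whose intervals are wider than those of the 10 genes. The 4 of 10 enters HSPA1A and HSPA1B separately, although they have long identical stretches and are not separate evidence. The difference of the log2 fold changes, PANC-1 minus MIA PaCa-2, was -1.59 (-1.79 to -1.40) for HSPA1A, -1.19 (-1.39 to -1.0) for HSPA1B and -0.52 (-0.58 to -0.45) for DNAJB1. HSPA8, DNAJA1, HSP90AA1, HSP90AB1, HSPE1 and HSPD1 were lower in both lines with both intervals past 0, which held for 24.9% of all genes. In these 6 genes the difference between the lines ran from -0.05 for HSPA8 to -0.59 for DNAJA1, which exceeded that of DNAJB1. An interaction of line and treatment could not be tested with 1 library per condition, so these intervals hold for the libraries and not for the lines.

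The lines themselves served as the only replicates in a test of CBC against PBS over all 4 libraries, the quasi-likelihood test of edgeR blocked by cell line, with Benjamini-Hochberg adjustment over 16381 genes. HSP90AA1 fell, with a log2 fold change of -0.77 ± 0.16 (SE) and an adjusted p of 0.0361 by this edgeR test, and it was lower in both lines. It was the 1 member of 10 called lower, against 2.45% of all genes, and 0 members were called higher, against 2.26%. HSPE1 came next with -0.79 ± 0.22 and an adjusted p of 0.0865 by the same edgeR test, followed by HSPA8 with -0.53 ± 0.16 and 0.107. DNAJA1 had -0.64 ± 0.21 (adjusted p 0.141, edgeR) and HSP90AB1 -0.42 ± 0.16 (adjusted p 0.189, edgeR). With HSP90AA1, these were the 5 members of 10 with an unadjusted p under 0.05, against 20.9% of all genes. HSPD1 and the members of opposite direction, HSPA1A, HSPA1B, DNAJB1 and HSPH1, had adjusted p-values of 0.305 to 0.861 in the edgeR test. The call of HSP90AA1 rested on the filter on low counts and on the block, since with a minimum of 5 CPM in 2 libraries its adjusted p was 0.0612 (edgeR) and without the block no gene was called.

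In the controls, HSPA1A was 1.25 higher on the log2 scale in PANC-1 than in MIA PaCa-2 (1.11 to 1.39) and HSP90AA1 was lower by more than 2-fold at -1.41 (-1.43 to -1.39). They were the 1 gene higher and the 1 gene lower by more than 2-fold among the 10, against 24% and 18% of 14805 genes. DNAJA1 (0.79, 0.74 to 0.83), HSPA1B (0.36, 0.23 to 0.50) and HSPA8 (0.22, 0.20 to 0.24) were also higher in the PANC-1 control. HSPH1 (-0.84, -0.88 to -0.79), DNAJB1 (-0.46, -0.51 to -0.42), HSPE1 (-0.32, -0.41 to -0.22) and HSPD1 (-0.26, -0.28 to -0.23) were lower there, and HSP90AB1 was nearly level at -0.04 (-0.06 to -0.02). With HSPA1A and HSPA1B summed, the pair was 0.81 higher in the PANC-1 control and no longer passed 2-fold. The median of the 10 genes was -0.15, beside 0.10 over all genes.

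Over both treatments, 4 members were called lower in PANC-1 than in MIA PaCa-2 by the cell line term of the same edgeR fit, against 21.7% of all genes, and 0 were called higher, against 25.1%. For this term the PBS and the CBC library of a line served as its only replicates. No line was repeated under the same treatment, so these p-values do not measure the spread between repeated cultures of a line. HSP90AA1 differed by -1.58 ± 0.16 (SE, adjusted p 0.000195, edgeR) and HSPH1 by -1.43 ± 0.27 (adjusted p 0.00419, edgeR). DNAJB1 differed by -0.78 ± 0.21 (adjusted p 0.0163, edgeR) and HSPD1 by -0.53 ± 0.18 (adjusted p 0.0436, edgeR). HSPD1 was not called with RLE size factors (adjusted p 0.0507, edgeR), and without the treatment term neither DNAJB1 (0.0871) nor HSPD1 (0.266) was called by edgeR. Without the filter on low counts DNAJA1 was called higher in PANC-1, at 0.50 with an adjusted p of 0.0495 by edgeR. HSP90AA1 and HSPH1 thus set the lines apart most, and in both the lower line was PANC-1 under each treatment. The other 6 members had adjusted p-values of 0.106 to 0.513 by edgeR, among them HSPA1A and HSPA1B, for which PANC-1 was the higher line without CBC and the lower line with it.

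The wider machinery around these chaperones was read from a list of 88 genes in 8 groups. Of its 82 genes in the edgeR test across both lines, 2 were called higher, against 2.26% of all genes tested. None was called lower, against 2.45%. In the same test 23 of the 82 had an unadjusted p under 0.05, against 20.9% of all genes tested. DNAJB2, a J protein enriched in neurons with ubiquitin-binding motifs, rose from 16.5 to 80.8 CPM in MIA PaCa-2 and from 45.4 to 86.0 CPM in PANC-1 (log2 fold change 1.61 ± 0.35 SE, adjusted p 0.0439, edgeR). LONP1, the main protease of the mitochondrial matrix, rose from 262 to 453 CPM and from 109 to 216 CPM (0.90 ± 0.19, adjusted p 0.0391, edgeR). Neither was called with RLE size factors, with a minimum of 5 CPM in 2 libraries or without the block. HSPA9, the HSP70 of the mitochondrial matrix, went from 758 to 1373 CPM and from 667 to 925 CPM without passing the test (adjusted p 0.0808, edgeR). The matrix chaperonin and the matrix HSP70 therefore had opposite directions in these libraries, with HSPE1 and HSPD1 lower and HSPA9 higher after CBC in each line.

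Group medians of the log2 fold change were below 0 in both lines for TRiC with prefoldin and for the HSP90 cochaperones. The same held for the small heat shock proteins and for the HSP70 and HSP110 relatives, given below. TRiC is the cytosolic chaperonin, and prefoldin hands it actin and tubulin. Their 14 genes had medians of -0.30 (MIA PaCa-2) and -0.48 (PANC-1). In each line 12 of them had a log2 fold change below 0, against 50.9% (MIA PaCa-2) and 48.6% (PANC-1) of all genes tested. CCT3, a TRiC subunit, went from 728 to 566 CPM and from 667 to 401 CPM, whereas the prefoldin subunit PFDN2 went the other way, from 77.6 to 117 CPM and from 93.2 to 183 CPM. The 15 HSP90 cochaperones had medians of -0.19 and -0.28, and log2 fold changes below 0 for 10 and 12 genes. FKBP5, an immunophilin of steroid receptor complexes, went from 83.6 to 43.1 CPM and from 62.6 to 39.2 CPM, and the phosphatase PPP5C from 102 to 63.0 CPM and from 92.8 to 54.1 CPM. None of these genes was called by edgeR. The 14 mitochondrial chaperones and proteases had medians above 0, at 0.12 and 0.24.

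Among the HSP70 and HSP110 relatives HSPA13, a microsomal HSP70, went from 59.0 to 122 CPM and from 79.5 to 129 CPM, and the ribosome-associated HSPA14 from 29.2 to 18.5 CPM and from 23.0 to 12.7 CPM. The group's medians were -0.09 in MIA PaCa-2 and -0.53 in PANC-1 over 8 genes. The 15 J proteins had medians of 0.03 and -0.18, and beside DNAJB2 the largest mean change among those with a mean of at least 10 CPM was that of DNAJC9, a histone-binding J protein, from 66.6 to 44.2 CPM and from 145 to 77.0 CPM. The small heat shock proteins, which hold unfolded clients without ATP, had 2 genes tested in MIA PaCa-2 and 3 in PANC-1. Their medians were -0.49 and -0.52. HSPB1 went from 533 to 417 CPM and from 322 to 205 CPM, and HSPB11, which despite its name is a part of the intraflagellar transport complex, from 28.3 to 18.4 CPM and from 31.4 to 21.8 CPM.

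The nucleotide exchange factors had medians of 0.17 in MIA PaCa-2 and -0.10 in PANC-1 over 7 genes. BAG3, which binds HSP70 and routes clients to selective autophagy, had 1775 counts (79.8 CPM) and 3014 (122 CPM) in MIA PaCa-2, and 4475 (197 CPM) and 3387 (124 CPM) in PANC-1. As for HSPA1A, the PANC-1 control was the highest library and the MIA PaCa-2 control the lowest, and the CBC libraries lay between them. Its log2 fold changes were 0.61 (0.52 to 0.70) and -0.67 (-0.73 to -0.60). BAG1 was higher after CBC in MIA PaCa-2 (45.6 against 28.5 CPM) and lower in PANC-1 (32.4 against 37.2 CPM). HSF1, the main heat shock transcription factor, stood at 135 CPM without and 204 CPM with CBC in MIA PaCa-2 and at 80.7 and 101 CPM in PANC-1, higher after CBC in each line beyond counting error, with an adjusted p of 0.248 in the edgeR test. HSF2 was at 24.96 and 21.99 CPM and at 42.8 and 34.1 CPM, and HSBP1, which binds HSF1, at 103 and 70.1 CPM and at 92.2 and 71.7 CPM.

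**Figure D4:**
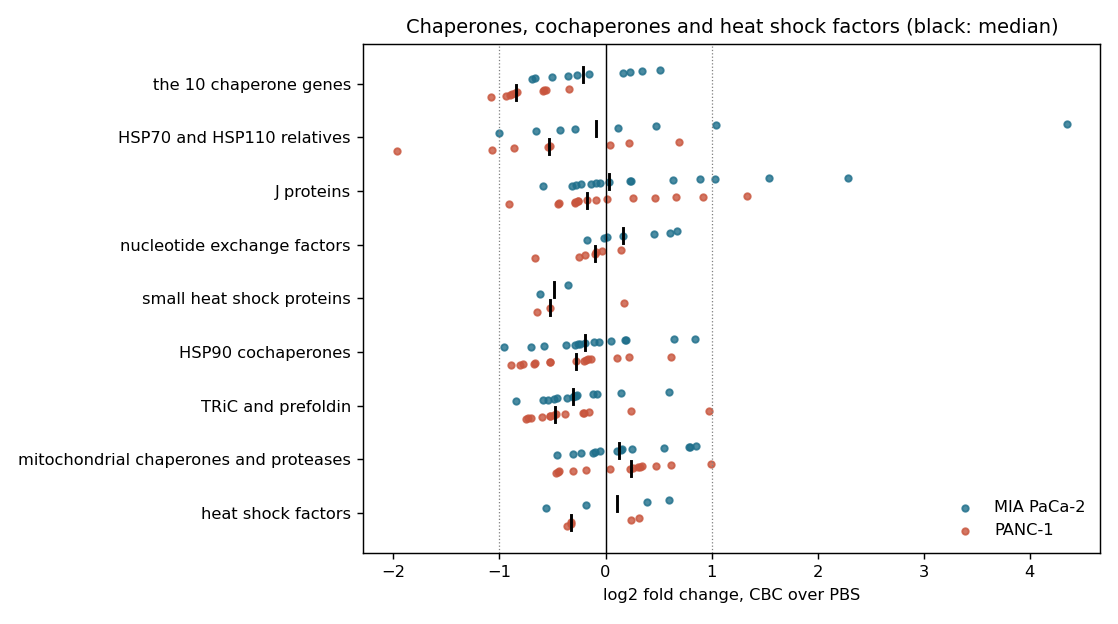
Log2 fold change of CBC over PBS for the 10 chaperone genes and for 8 groups of the wider list, each point 1 gene tested in MIA PaCa-2 (blue) or PANC-1 (red), with black bars for medians and dotted lines at 2-fold. The median of the 10 chaperone genes lies at -0.21 in MIA PaCa-2 and -0.84 in PANC-1, the latter lower than the PANC-1 median of each of the 8 groups.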

How the data were processed

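Reads were trimmed by the authors (cutadapt 2.7), mapped with STAR to GRCh38 and summed per annotated gene by HTSeq, and these raw counts are what was deposited. HTSeq's strand option and overlap mode are not given in the sources used here, while the library kit is a directional one. The authors also deposited a signal per library, a CPM on TMM-scaled library sizes, which differed from the same quantity computed from the counts by a relative 6.84e-09 at most. All values were computed from the counts.

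Of 58233 identifiers, 57392 matched a symbol. Positions, canonical transcripts and overlaps came from GENCODE 44 on GRCh38 and promoter windows from RefSeq. edgeR 4.0.16 (R 4.3.3) gave the fold changes, with TMM over 4 libraries and a prior count of 2, for genes reaching 1 CPM in either library of a comparison. A change past 2-fold was called. Intervals were computed with scipy 1.17.1 from the counts and cover counting error only, and depth was 21742775 to 27903667 counts. The interval of a difference between the lines adds the counting variances of both fold changes.

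CBC was tested against PBS with edgeR's quasi-likelihood test on 16381 genes passing edgeR's own filter, with the line as a block, 1 residual degree of freedom and a common coefficient of biological variation of 23%. A treated library was paired with the control of its own line, and across genes, the deviations within a pair from the means of the treatments correlated at 0.922. P-values measure the spread between these libraries, and no library repeats another. The test was run on simulated data first.

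The members and the wider list were chosen with earlier results of these data known. Beside the 10 members, the text names from each group of the wider list the 2 genes with the largest mean absolute change among those with a mean of at least 10 CPM, every gene called across both lines, HSF1 and HSF2. Alternatives changed the scaling, the prior count, the filter, the tool (DESeq2 1.42.0, limma 3.58.1), the block, and the summing of HSPA1A with HSPA1B or of members with their pseudogenes. Experiments other than RNA sequencing were not analysed here.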

Additional observations from a re-analysis of the deposited data

Results flagged for a closer look

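Genes whose log2 fold changes after CBC had opposite signs in the lines, each beyond counting error, were singled out among the 10 chaperone genes and the named genes of the wider list. The difference of PANC-1 minus MIA PaCa-2 was -1.593 for HSPA1A, -1.191 for HSPA1B, -1.070 for HSPH1 and -0.515 for DNAJB1. Among the nucleotide exchange factors it was -1.277 for BAG3 (-1.38 to -1.17) and -0.873 for BAG1 (-1.07 to -0.68). Of the 79 genes of the whole wider list tested in both lines, 13 had opposite directions beyond counting error. Of these, 9 were higher in MIA PaCa-2 and lower in PANC-1, against 5.99% of all genes tested in both lines. The reverse held for 4, and its share over all genes was not computed. Of the latter, BAG2, a further nucleotide exchange factor named here after its values were seen, had a difference of 0.32 (0.14 to 0.49). HSPA1A and HSPA1B have long identical stretches and are not counted as separate evidence, since how reads matching both were counted is not stated. With 1 library per condition none of these differences was tested against replicates. The doses differed as well, 35 µM in MIA PaCa-2 and 30 µM in PANC-1, and a difference between the lines cannot be told apart from a difference between the doses or between single libraries. The paper also reported a larger share of apoptotic cells after CBC in MIA PaCa-2 than in PANC-1, and its part here was not tested.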

How the results depend on the processing

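Each of the 10 chaperone genes kept 1 sign within MIA PaCa-2, within PANC-1 and between the controls under the alternatives for scaling, prior count, filter, values and summing. Library totals moved the median of the members to -0.144 in MIA PaCa-2 and to -0.282 between the controls, and moved the median of all genes between the controls from 0.10 to -0.04. With HSPA1A and HSPA1B summed, these medians were -0.265 and -0.258, 0 members passed 2-fold in PANC-1 and 1 between the controls. Across both lines, the members called numbered 5 without a filter beyond 1 count, 0 with at least 5 CPM in 2 libraries, 3 with DESeq2 (HSPA8, HSP90AA1 and HSPE1) and 0 without the replicate block. The genes called in the wider list numbered 0 with RLE size factors, 11 without the filter, 0 with at least 5 CPM, 12 with DESeq2 and 0 without the block. Over all genes the reported setting called 370 higher and 401 lower, no filter 1056 and 1007, at least 5 CPM 197 and 211, DESeq2 579 and 717, and no block 0 and 0, where 354 genes had an unadjusted p under 0.05. Between the lines, 2 members were called without the treatment term (HSPH1 and HSP90AA1) and 5 without the filter, where DNAJA1 was called higher in PANC-1, and with RLE size factors HSPD1 had an adjusted p of 0.0507 in the edgeR test. The causes were not tested. No replicate could be left out, since each group is 1 library and leaving out a line leaves no residual degree of freedom. The members had 578 counts or more in every library, and counting error alone could undo the 2-fold call of HSPA1A in PANC-1.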

Other observations

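HSPA6, an HSP70 gene that is nearly silent until cells meet strong heat or proteotoxic stress, had 11 counts (0.495 CPM) in the MIA PaCa-2 control, 289 (11.7 CPM) in CBC-treated MIA PaCa-2 cells, 53 (2.33 CPM) in the PANC-1 control and 43 (1.57 CPM) in CBC-treated PANC-1 cells. It was named after its values were seen. The CBC-treated MIA PaCa-2 library stood apart from the other three, with a log2 fold change of 4.35 (3.70 to 5.58), the largest in MIA PaCa-2 among the 79 genes of the wider list tested there. In PANC-1 the log2 fold change was -0.54 and its interval (-1.18 to 0.04) included 0. Over both lines the adjusted p was 0.419 in edgeR's quasi-likelihood test.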
